A study of Mus musculus with 6 samples.

Results

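The genes described here write, copy, oxidize, excise or read methylated cytosine in DNA: Dnmt1, Dnmt3a, Dnmt3b, Uhrf1, Uhrf2, Tet1, Tet2, Tet3, Tdg and Mbd2. Each was followed through the probes that carry its symbol and no other, and the probe with the highest mean over all arrays stood for the gene. Of the 10 genes, 9 had such a probe, among 19938 genes measured in the same way. Tdg is targeted only by probes that also carry the symbol of a pseudogene, and is described apart. RNA came from N2A cells, a mouse neuroblastoma line, carrying either an shRNA construct against Pbcas4, a transcribed rodent pseudogene, or a scramble construct as the control. Cells were plated 24 h before a transient transfection and harvested 72 h after it, and each condition was measured on 3 Affymetrix Mouse Gene 1.0 ST arrays. Both conditions received the transfection itself, neither was a stable line, and one line gave all the cells, so p-values measure only the spread between these transfections. The probe annotation used here does not name Pbcas4, whose own level was not analysed here.

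Methylation of cytosine in CpG dinucleotides is laid down on unmarked DNA by the de novo methyltransferases Dnmt3a and Dnmt3b. It is then copied to the new strand after replication by Dnmt1, which Uhrf1 brings to half-methylated sites. Tet enzymes oxidize methylcytosine, Tdg excises the oxidized base and base excision repair restores an unmodified cytosine, while proteins such as Mbd2 bind methylated CpG and recruit repressors. In dividing cells the copying machinery is made mostly around S phase, and Uhrf1 and Dnmt1 are commonly listed among genes controlled by E2F transcription factors.

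The 6 arrays had similar medians, from 7.75 to 7.86 on the log2 scale. Over all genes scramble replicate 1 correlated at 0.994 to 0.995 with the shRNA arrays and at 0.989 to 0.993 with the other scramble arrays, so this control stood nearer to the treated cells. All 14 measured sympathoadrenal and neuronal markers lay above the 95th percentile of 1035 olfactory receptor probes (7.20), a level used here for genes that are not expressed, and so did all 9 measured methylation genes on all arrays. The mean level of those markers ran from 11.41 to 11.67 in shRNA and from 11.76 to 11.99 in scramble arrays. Of other cell types, 5 of 7 fibroblast, 1 of 6 macrophage, 2 of 6 epithelial and 2 of 5 glial markers exceeded that level on all arrays, their lists averaged at most 7.50 on any array, and Ptprc, Csf1r, Epcam and Gfap were among those that did not exceed it.

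A gene was called when its log2 difference exceeded 0.5 and its limma p, adjusted by Benjamini-Hochberg, was under 0.05. Of the 9 genes 0 were called, as were 0% of all 19938 genes. None of the 9 had an unadjusted p under 0.05 either, a rule met by 11.7% of genes. In 1 of the 9, Mbd2, the 3 shRNA values all lay on one side of the 3 scramble values, against 16.8% of genes in either direction. The mean was higher in shRNA cells for 7 of the 9 and lower for 2, with a median log2 difference of 0.098, beside 0.0031 for all genes. Benjamini-Hochberg adjusted p-values from limma ran from 0.503 for Dnmt3b to 0.959 for Tet1, and the lowest of all probes was 0.297. Arrays of one condition often differed from each other by more than the conditions did, as the plot of expression by array shows. With array weights in limma, Dnmt3b (adjusted p 0.0204) and Uhrf1 (0.0483) were called, among 1320 of the 19938 genes. The weights were estimated from the same expression values, at 5.32 for shRNA replicate 3 and 0.353 for scramble replicate 1. The share of all genes at an unadjusted p under 0.05 was then 32.6%. These calls rest on the weights and add no separate evidence.

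**Figure D1:**
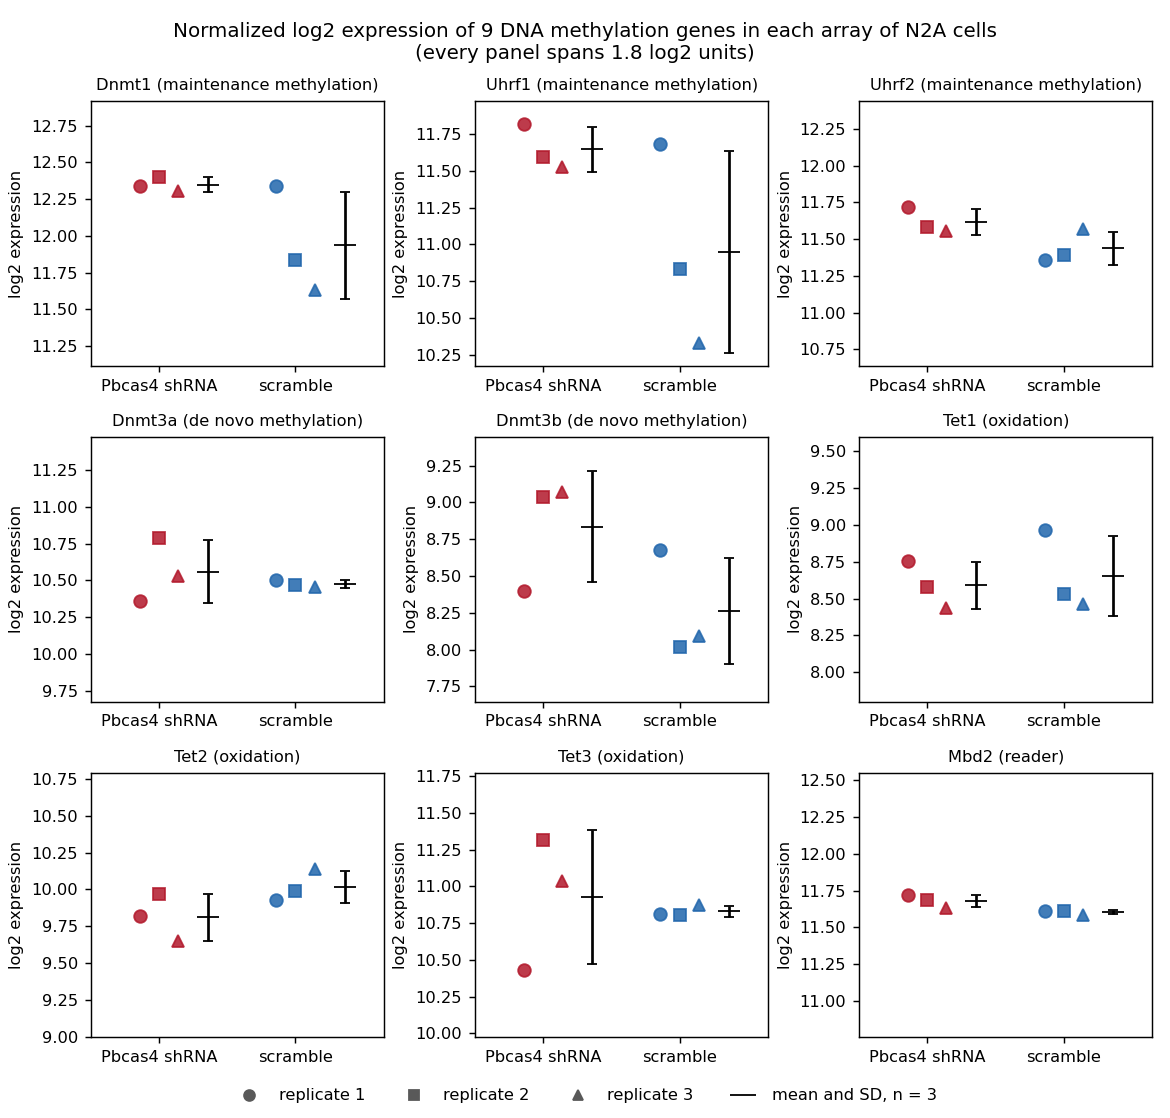
Normalized log2 expression (vertical axes, each 1.8 log2 units tall) of the 9 methylation genes in each array of Pbcas4 shRNA and scramble cells; symbols are arrays, and the bar beside them is the mean with its SD (n = 3). Dnmt1, Uhrf1 and Dnmt3b have one scramble array, replicate 1, far above the other scramble arrays, and Mbd2 is the one gene whose conditions do not overlap.

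Dnmt1, the maintenance methyltransferase, measured 12.34, 12.40 and 12.30 on the log2 scale in shRNA replicates 1, 2 and 3. In scramble replicates 1, 2 and 3 it measured 12.34, 11.84 and 11.63. The shRNA arrays were tightly grouped, scramble replicate 1 lay inside their range, and the other scramble arrays lay below it. Means were 12.35 ± 0.05 and 11.94 ± 0.36 (SD, n = 3), a log2 difference of 0.41 with a standard error of 0.18 and a 95% interval of -0.02 to 0.84, or 1.33-fold on the linear scale. The limma adjusted p was 0.510, and a two-sided exact permutation test over arrays gave p = 0.2, where 3 arrays against 3 cannot go below 0.1. The shRNA mean exceeded scramble replicate 1 by 0.0099 and the mean of scramble replicates 2 and 3 by 0.61.

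Uhrf1, which recognizes half-methylated CpG and recruits Dnmt1, had the widest range of the 9 genes. Its log2 values were 11.82, 11.59 and 11.52 in the shRNA replicates, and 11.68, 10.83 and 10.33 in the scramble replicates. Scramble replicate 1 again fell among the shRNA arrays, while scramble replicates 2 and 3 were the lowest of all 6. The mean was 11.65 ± 0.15 in shRNA and 10.95 ± 0.68 in scramble cells (SD, n = 3), a log2 difference of 0.70 (standard error 0.32, 95% interval -0.08 to 1.47) and a fold of 1.62. With an adjusted p of 0.533 in limma and an exact permutation p of 0.3, this did not exceed the spread between arrays. Against scramble replicate 1 alone the shRNA mean was lower by 0.04 (log2 difference -0.04), and against the mean of the other scramble arrays it was higher by 1.07.

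Arrays with the same replicate number were only weakly alike over all probes once the condition means were removed (correlations of 0.103 to 0.291). Subtracting same-numbered arrays gave log2 differences of 0.0018, 0.56 and 0.67 for Dnmt1 and of 0.14, 0.76 and 1.19 for Uhrf1. All 3 pairs were therefore higher in shRNA cells for both genes, although the first pair of Dnmt1 was almost level. With the replicate number as a block, Dnmt1 and Uhrf1 reached an unadjusted p under 0.05, as 14.6% of all genes did, and the lowest adjusted p among the 9 genes in limma was then 0.300. Leaving out scramble replicate 1 brought the difference of Dnmt1 to 0.61 and that of Uhrf1 to 1.07, with adjusted p-values in limma of 0.0672 for both. Leaving out scramble replicate 3 lowered them to 0.26 and 0.39. The size of both differences was therefore set largely by which scramble arrays were counted.

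Uhrf2, a paralogue of Uhrf1 that binds hydroxymethylated and half-methylated DNA but does not replace it in maintenance, followed another pattern. It measured 11.72, 11.58 and 11.56 in shRNA and 11.36, 11.39 and 11.57 in scramble replicates on the log2 scale. Only scramble replicate 3 reached the shRNA values, in contrast to Uhrf1, where that array was the lowest. The log2 difference was 0.18 with a standard error of 0.10 (95% interval -0.05 to 0.41), with a limma adjusted p of 0.608.

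Because Uhrf1 and Dnmt1 are commonly listed among genes controlled by E2F, promoters were searched for the E2F motif. It was spelled TTTCCCGC, TTTCGCGC, TTTGCCGC or TTTGGCGC, on either strand. Each window held the 300 bases from 250 before to 50 after a RefSeq start site. Dnmt1 and Uhrf1 hold it, and the 30 bases around each match are shown. Capitals mark the motif, and each stretch is read 5′ to 3′ on the gene's strand (GRCm38.p6). Whether E2F has a part in the values of these genes was not tested.
Dnmt1, chr9:20952824-20952853, minus strand: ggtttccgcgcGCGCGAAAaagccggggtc
Dnmt1, chr9:20952574-20952603, minus strand: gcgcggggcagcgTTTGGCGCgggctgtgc
Uhrf1, chr17:56304117-56304146, plus strand: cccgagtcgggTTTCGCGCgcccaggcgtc
The first Dnmt1 match is TTTCGCGC read on the strand opposite to the gene, with its first base at -219 from the start site, and the second lies within the transcribed bases at 34. The Uhrf1 match lies at -185 from the second of its start sites. The windows with a match hold 33 CpG dinucleotides in Dnmt1 and 33 in Uhrf1, where the median window holds 7. Dnmt1 has 2 other windows, with 12 and 2 CpG, and Uhrf1 has 1, with 12, none of which held the motif. Among genes without the motif, Tet2 held 57 CpG and Dnmt3a up to 47, which is more than 33. Dnmt3b, Uhrf2, Tdg, Tet3 and Tet1 held fewer, with 30, 28, 26, 22 and 17. Of the 10 genes, 9 had a window, and 2 of the 9 held the motif, beside 704 of 27025 genes (2.61%) and 8 of 22 genes of the S phase list with a window (36.4%). Every spelling of the motif holds a CpG, and the share over all genes was not matched for CpG content or for windows per gene. No match was found in the windows of Uhrf2, Dnmt3a, Dnmt3b, Tet1, Tet2, Tet3 and Tdg, which says only that these letters are not within those bases. A match is a description of sequence and not a measured binding site.

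The S phase and DNA replication list moved with both genes. Its 26 measured members had a mean log2 level of 11.74, 11.49 and 11.54 in shRNA replicates and of 11.63, 10.75 and 10.24 in scramble replicates. The 19 mitosis genes averaged 12.01, 11.92 and 11.85 against 11.89, 11.12 and 10.73. In both lists scramble replicate 1 stood level with the shRNA arrays and scramble replicate 3 was lowest, which is the order of Uhrf1. All 26 and all 19 had a higher mean in shRNA cells, with median log2 differences of 0.67 and 0.73. At an unadjusted p under 0.05 there were 6 S phase genes, among them the replicative helicase subunit Mcm7 (0.83, standard error 0.29) and the flap endonuclease Fen1 (0.97, standard error 0.37), and 10 mitosis genes, among them the centromere protein Cenpf (0.82, standard error 0.26) and the kinase Plk1 (0.77, standard error 0.26). No gene of either list passed adjustment in limma. In 2 S phase and 8 mitosis genes, all higher, the conditions did not overlap, beside 16.8% of all genes in either direction. The medians turned on single arrays, at 1.04 and 1.07 without scramble replicate 1 and 0.38 and 0.46 without scramble replicate 3. So did the counts: with scramble replicate 1 left out all 26 and all 19 had an unadjusted p under 0.05, and with any 1 other array left out 0 S phase genes and at most 4 mitosis genes had. Of all genes, 11.7% had an unadjusted p under 0.05 with all 6 arrays. The share was 19.4% without scramble replicate 1, and 5.33% to 10.7% without any 1 other array. With the replicate block the S phase count was 21, and the share of all genes was 14.6%. In bulk RNA, fewer cells in a phase and less RNA per cell cannot be told apart, and the part of the cell cycle lists in the values of Dnmt1 and Uhrf1 was not tested.

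**Figure D2:**
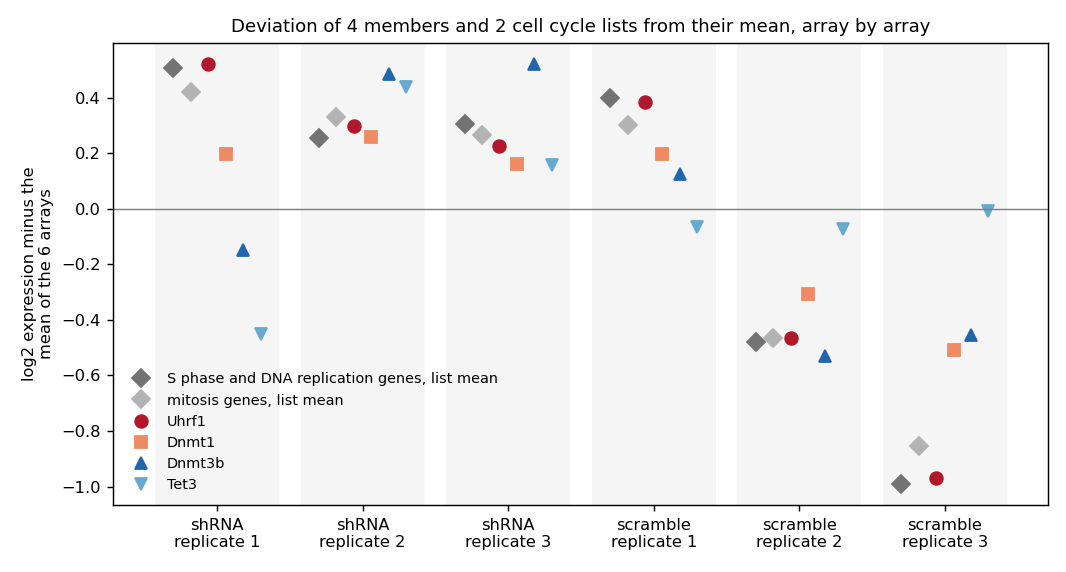
Log2 expression minus the mean of the 6 arrays (vertical axis) for Uhrf1, Dnmt1, Dnmt3b and Tet3 and for the mean of the S phase and mitosis lists, in each array (horizontal axis). Uhrf1 lies close to both lists in every array, from 0.52 above its mean in shRNA replicate 1 to 0.97 below it in scramble replicate 3, whereas Dnmt3b and Tet3 are below their means in shRNA replicate 1.

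For the genes with a range over 1 log2 unit, the measured genes of most similar pattern were sought by the root mean square difference of mean-centred log2 values over the 6 arrays. Nearest to Uhrf1 were Cep55, a protein of the cytokinetic bridge, at 0.011, the centromere protein Cenpw at 0.014 and the condensin subunit Ncapg at 0.034. All 3 are genes of cell division. Nearest to Dnmt3b were Smpdl3b at 0.073, Nfatc2ip at 0.095 and Fam126b at 0.095, so no gene matched Dnmt3b as closely as the first 3 matched Uhrf1.

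Dnmt3b, a de novo methyltransferase prominent in early embryonic cells, had the lowest limma p of the 9 genes. It measured 8.40, 9.04 and 9.07 in shRNA replicates and 8.67, 8.02 and 8.09 in scramble replicates on the log2 scale. The replicates numbered 2 and 3 separated by about 1 log2 unit, with the shRNA arrays higher, and those numbered 1 ran the opposite way, with the shRNA array 0.27 lower (log2 difference -0.27). Means of 8.84 ± 0.38 and 8.26 ± 0.36 (SD, n = 3) gave a log2 difference of 0.57 with a standard error of 0.25 (95% interval -0.01 to 1.16) and a fold of 1.49. The limma adjusted p was 0.503 and the exact permutation p 0.2. Without scramble replicate 1 the difference was 0.78, without shRNA replicate 1 it was 0.79, and without any 1 of the other 4 arrays it was 0.45 to 0.49. With the replicate block the unadjusted p was 0.0919, beside 0.0540 without it.

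Dnmt3a, the de novo methyltransferase most used in neurons, showed little of this. Its log2 values were 10.36, 10.79 and 10.53 in shRNA cells and 10.50, 10.47 and 10.45 in scramble cells. The scramble arrays agreed within 0.05 of one another and lay inside the range of the shRNA arrays. The log2 difference was 0.09 with a standard error of 0.12 (95% interval -0.21 to 0.38) and a limma adjusted p of 0.911. Without shRNA replicate 2 its sign turned, to -0.03.

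**Figure D3:**
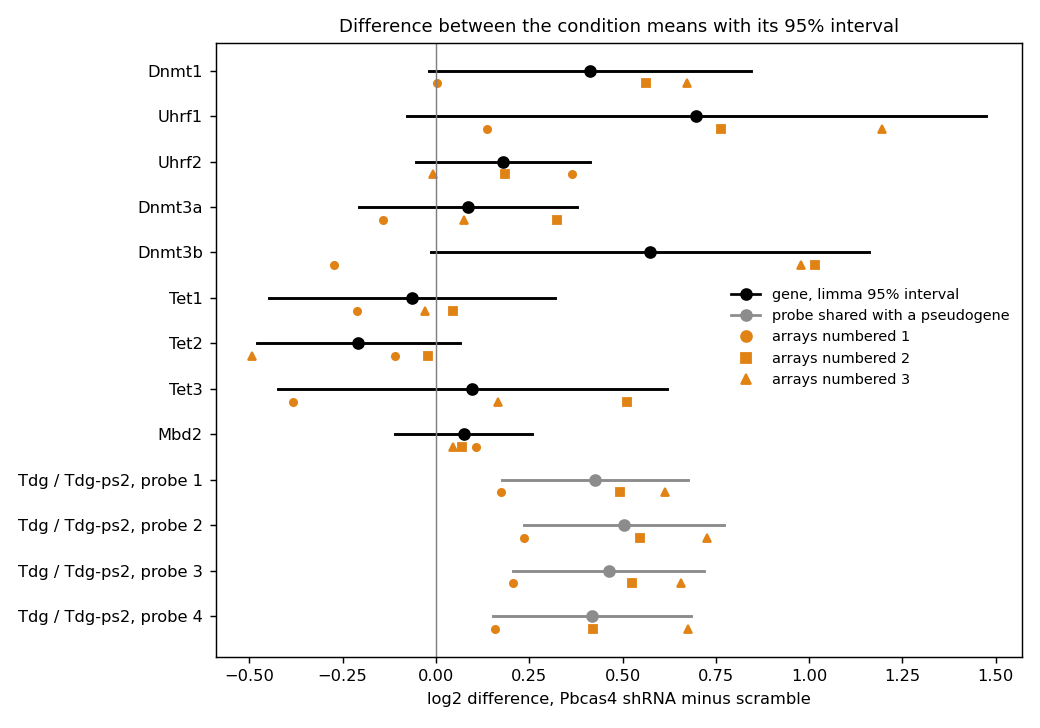
Log2 difference between the means of shRNA and scramble arrays (horizontal axis) with its 95% limma interval for the 9 methylation genes (black) and for 4 probes shared by Tdg and a pseudogene (grey); small symbols below are the differences of arrays with the same number. The intervals of all 9 genes include 0, closest to leaving it for Dnmt3b and Dnmt1, and those of the 4 shared probes lie above it before adjustment.

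The Tet enzymes, which oxidize methylcytosine, had log2 differences of -0.21 to 0.10. Tet2 measured 9.82, 9.97 and 9.65 in shRNA and 9.93, 9.99 and 10.14 in scramble replicates. All 3 same-numbered pairs were lower in shRNA cells, but shRNA replicate 2 overlapped the scramble arrays. Its log2 difference was -0.21 with a standard error of 0.11 (95% interval -0.48 to 0.07), with a limma adjusted p of 0.612.

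Tet1, the family member best known from embryonic stem cells, measured 8.76, 8.58 and 8.43 in shRNA and 8.97, 8.53 and 8.46 in scramble replicates on the log2 scale. In both conditions replicate 1 was highest and replicate 3 lowest, and the conditions overlapped throughout. The log2 difference was -0.06 (standard error 0.16, limma adjusted p = 0.959), and the other 2 of its 3 probes gave -0.07 and 0.07, so the probes differ in sign around 0.

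Tet3, a family member with neuronal roles, measured 10.43, 11.32 and 11.04 in shRNA and 10.81, 10.81 and 10.87 in scramble replicates on the log2 scale. Here the shRNA arrays scattered, with an SD of 0.45, and the scramble arrays did not, with an SD of 0.04. The log2 difference was 0.10 with a standard error of 0.22 (limma adjusted p = 0.952), and the second Tet3 probe gave 0.06. Without shRNA replicate 1 the difference was 0.35 and without shRNA replicate 2 it was -0.10, so its direction rested on single arrays. Like Dnmt3b and Dnmt3a, Tet3 was lowest of the shRNA arrays in replicate 1, the reverse of Uhrf1, Uhrf2, Tet1 and Mbd2.

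Tdg, the glycosylase that removes oxidized methylcytosine and mismatched thymine, had no probe of its own. Each of 4 probes carries both Tdg and Tdg-ps2, a transcribed pseudogene, so the gene and its copy cannot be told apart, and the probes may read the same transcripts. The probe with the largest difference measured 12.51, 12.58 and 12.70 in shRNA and 12.28, 12.03 and 11.97 in scramble replicates on the log2 scale. All 3 shRNA arrays lay above all 3 scramble arrays, and this held for 4 of the 4 probes, against 14.7% of all 35556 probes. Their log2 differences were 0.42 to 0.50 with standard errors of 0.10 to 0.11, or folds of 1.34 to 1.42. Unadjusted limma p-values ran from 0.0032 to 0.0078, under 0.05 as for 10.1% of all probes, and adjusted ones from 0.359 to 0.390, so none passed. With array weights, estimated from the same values, the limma adjusted p of the 4 probes was 0.0172 to 0.0185 and their median log2 difference 0.58. Over single arrays left out that median ran from 0.39 to 0.51. Scramble replicate 1 was again the highest control, although here it stayed below the shRNA arrays.

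Mbd2, a methyl-CpG binding protein that brings the NuRD deacetylase complex to methylated DNA, was the steadiest of the 9 genes. It measured 11.72, 11.68 and 11.63 in shRNA and 11.61, 11.61 and 11.59 in scramble replicates on the log2 scale. The shRNA values all lay above the scramble values, by as little as 0.02 between the nearest arrays. The log2 difference of 0.07 (standard error 0.08, 95% interval -0.11 to 0.26) corresponds to a fold of 1.05, and limma gave an adjusted p of 0.848. After centring on the array median or quantile normalization the conditions overlapped.

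Over the 6 arrays, Uhrf1 had an SD of 0.59 on the log2 scale, above 98.1% of genes, and Dnmt3b had 0.46, above 95.7%. Dnmt1 followed with 0.32 and Tet3 with 0.29, above 89.4% and 86.8% of genes. Mbd2 had 0.049, above 2.33%, and the median gene 0.15. The family therefore spans both ends of the range of variation on these arrays, with Uhrf1 and Dnmt3b at the variable end.

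The surrounding pathway was followed through 11 lists, with 169 of 183 symbols measured. Limma called none of the 169 after adjustment (lowest adjusted p 0.337). An unadjusted p under 0.05 was met by 33, where 11.7% of all genes met it. Of the 33, 6 were from the S phase list and 10 from the mitosis list. Among partners of maintenance methylation 11 of 13 had a higher mean in shRNA cells, with a median log2 difference of 0.20 (0.32 without scramble replicate 1). Of the 13, 3 (23.1%) had an unadjusted p under 0.05, beside 11.7% of all genes. Cdca7, which forms a chromatin remodeller with Hells, measured 11.05, 11.43 and 11.46 in shRNA and 10.62, 10.03 and 9.89 in scramble replicates. All shRNA arrays were above all scramble arrays, and the log2 difference was 1.14 with a standard error of 0.22 (limma adjusted p = 0.344). The H3K9 methyltransferase Suv39h2 differed by 0.81 (standard error 0.27), also with no overlap. Its scramble replicates measured 10.04, 9.28 and 8.95 and its lowest shRNA array 10.12, so scramble replicate 1 nearly reached the shRNA arrays. In 3 of the 13, all higher, the conditions did not overlap, beside 16.8% of all genes in either direction. With the replicate block 6 of the 13 had an unadjusted p under 0.05, where 14.6% of all genes did. Without scramble replicate 1 there were 9, where 19.4% of all genes did. Without scramble replicate 2 or 3, or without shRNA replicate 1, 1 had, where 5.33%, 6.03% and 10.7% of all genes did.

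A list of 12 genes around the targeting of de novo methylation held genes that do not all promote it, such as Kdm2b and those of PRC2. Of the 12, 2 (16.7%) had an unadjusted p under 0.05, both higher in shRNA cells, beside 11.7% of all genes. These were Ezh2, the methyltransferase of Polycomb complex PRC2, with a log2 difference of 0.57 (standard error 0.20), and Setd2, which places H3K36 trimethylation, with 0.34 (standard error 0.13). For Ezh2 the scramble replicates measured 12.81, 12.33 and 12.05 and the lowest shRNA array 12.86, so scramble replicate 1 nearly reached the shRNA arrays. In 1 higher and 1 lower gene of the list the conditions did not overlap, beside 16.8% of all genes in either direction. The median of the list was 0.10, with 0.0087 without shRNA replicate 1, 0.039 without scramble replicate 3 and 0.19 without scramble replicate 1. Without scramble replicate 2 or 3, or without shRNA replicate 1, no gene of the list had an unadjusted p under 0.05. Beside Mbd2, 7 genes were listed by membership of methyl-CpG reader families, and not all of them, Mbd3 and Mbd6 for example, need bind methylated CpG. The glycosylase Mbd4 was higher by 0.37 (standard error 0.13). The zinc finger protein Zbtb4 had a log2 difference of -0.24 (standard error 0.09), and both had an unadjusted p under 0.05. They were 2 of the 7 (28.6%), beside 11.7% of all genes. Without shRNA replicate 2, or without scramble replicate 2 or 3, no gene of this list was under that p. In 1 of the 7, which was lower, the conditions did not overlap, beside 16.8% of all genes in either direction. The NuRD partners of Mbd2 included no gene at an unadjusted p under 0.05, although 11 of 12 had a higher mean, with a median of 0.17 (0.11 without scramble replicate 3). Without scramble replicate 1 there were 7, when 19.4% of all genes were under that p. In 4 of the 12 NuRD partners, all higher, the conditions did not overlap, beside 16.8% of all genes in either direction.

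Genes of Tet partners and of cofactor supply leaned the other way, with 8 of 11 lower in shRNA cells and a median log2 difference of -0.19. Idh1, which makes the 2-oxoglutarate that Tet enzymes consume, measured 11.48, 12.08 and 11.85 in shRNA and 12.26, 12.47 and 12.29 in scramble replicates. No shRNA array reached the lowest scramble array, and the log2 difference was -0.54 with a standard error of 0.16 (limma adjusted p = 0.413). Idh1 was the 1 gene of this list at an unadjusted p under 0.05 (9.09%, beside 11.7% of all genes). There were 2 under the replicate block and 3 without scramble replicate 1, beside 14.6% and 19.4% of all genes. In 3 genes of the list, all lower, the conditions did not overlap, beside 16.8% of all genes in either direction. Without shRNA replicate 1 the median of the list was -0.04, and without scramble replicate 3 it was -0.10.

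The base excision partners of Tdg were divided. Smug1, a uracil and hydroxymethyluracil glycosylase, measured 7.94, 8.30 and 8.10 in shRNA and 9.08, 9.01 and 8.91 in scramble replicates on the log2 scale. It had the lowest adjusted p of the 11 lists, with a log2 difference of -0.88 (standard error 0.12, limma adjusted p = 0.337), and scramble replicate 1 was here the array farthest from the shRNA arrays. Polb, the polymerase that fills the gap after excision, also had a lower mean (log2 difference -0.33, standard error 0.11), while the glycosylases Neil3 and Ogg1 had higher ones (0.77, standard error 0.28, and 0.27, standard error 0.08). In all 4, which were named for their low p, the conditions did not overlap. For Neil3 the scramble replicates measured 10.59, 9.87 and 9.44, and the lowest shRNA array 10.63. Scramble replicate 1 thus nearly reached the shRNA arrays, and the order of the scramble arrays was that of the S phase list. Of the 15 measured genes 2 higher and 3 lower did not overlap, beside 16.8% of all genes. An unadjusted p under 0.05 was met by 4 of the 15 (26.7%), beside 11.7% of all genes. Without scramble replicate 1 there were 7, beside 19.4% of all genes. Without scramble replicate 2 or shRNA replicate 3 there were 2, beside 5.33% and 6.42% of all genes. Of 14 genes of the methyl donor cycle, which supplies S-adenosylmethionine, 3 (21.4%, beside 11.7% of all genes) had an unadjusted p under 0.05, all higher. Among them were methionine synthase Mtr with a difference of 0.58 (standard error 0.21) and its reductase Mtrr with 0.34 (standard error 0.09). Without scramble replicate 2 or 3, or without shRNA replicate 2, 1 of the 14 was under that p, beside 5.33%, 6.03% and 9.89% of all genes. In 3 of the 14, all higher, the conditions did not overlap, beside 16.8% of all genes in either direction.

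**Figure D4:**
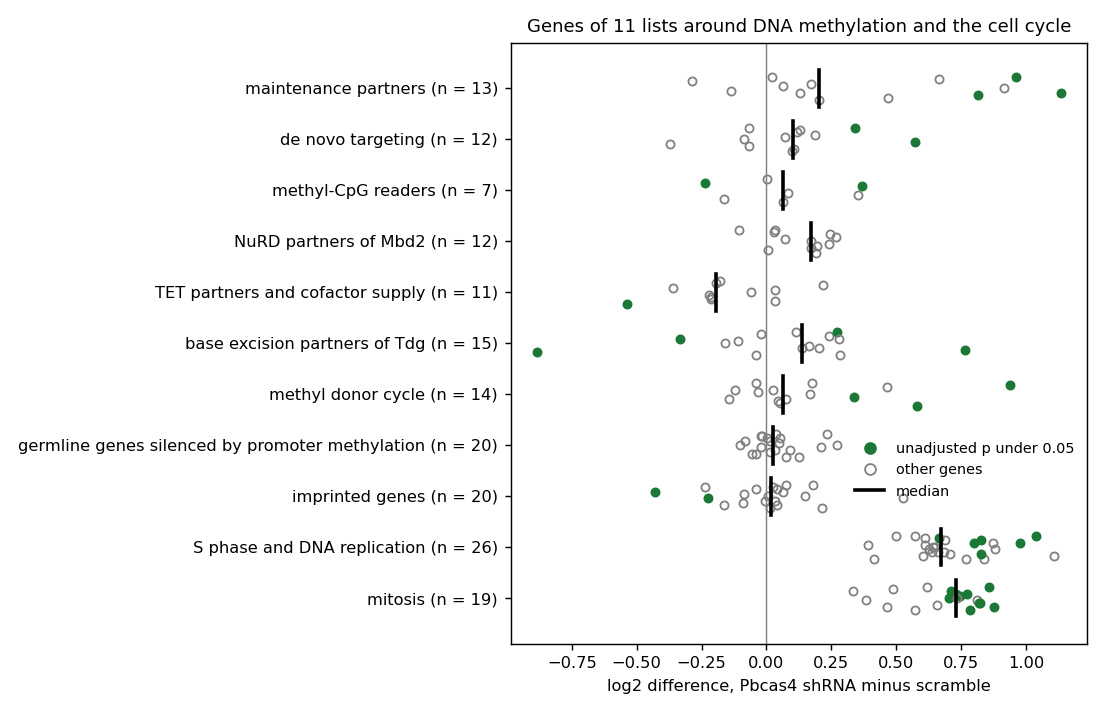
Log2 difference between shRNA and scramble means (horizontal axis) of each gene in 11 lists; filled points have an unadjusted p under 0.05, open points do not, and the black bar is the median of the list. The medians of the S phase and mitosis lists are 0.67 and 0.73, that of Tet partners is -0.19, and those of germline and imprinted genes are near 0.

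Germline genes listed as silenced by promoter methylation, and imprinted genes, were examined as well. Of 20 germline genes listed as silenced by promoter methylation, 12 lay below the unexpressed level of 7.20 on all arrays and 5 above it. Among the 5 were Asz1 (12.09 to 12.42) and Taf9b (10.14 to 11.22), so not all of the list was silent in these cells. Whether methylation silences any gene of the list in this line was not tested. None had an unadjusted p under 0.05, the median log2 difference was 0.024 (from -0.03 to 0.086 over single arrays left out, lowest without shRNA replicate 1 and highest without shRNA replicate 2) and the largest in size was 0.27. Of 20 imprinted genes 13 lay above that level on all arrays, with a median difference of 0.019, which was -0.01 without shRNA replicate 1. The imprinted genes Peg3 (log2 difference -0.43, standard error 0.13) and Mest (-0.23, standard error 0.09) had lower means in shRNA cells, without overlap and at an unadjusted p under 0.05. They were the only 2 of the 20 (10%) under that p, beside 11.7% of all genes. Without overlap were 1 higher and 2 lower imprinted genes, beside 16.8% of all genes in either direction. Without shRNA replicate 1 there were 4 imprinted genes at an unadjusted p under 0.05, beside 10.7% of all genes. Without shRNA replicate 3 or scramble replicate 1 or 2 there was 1, beside 6.42%, 19.4% and 5.33% of all genes. DNA methylation itself was not measured.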

How the data were processed

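The authors deposited 1 log2 value per probe and array, already summarized and normalized by a method not given in the sources used here. No further normalization was applied. Array number (3 per condition) limits the precision. Of 35556 probes, 21789 carry 1 symbol in the platform annotation. All probes were fitted with limma 3.58.1 in R 4.3.3 (lmFit, eBayes; 1 term for the construct; two-sided; Benjamini-Hochberg over all probes). For the study, limma was run with the same limit on the adjusted p, on probes with a variance over 0.5 across conditions. Here that criterion was taken as a log2 difference over 0.5 and applied to the calls, not as a filter before adjustment. The study reported differentially expressed genes, most of them down-regulated, where no gene was called here. Its filter was not reproduced, so the calls cannot be compared. The scripts were tested on simulated data. Members and gene lists were chosen with earlier results of these data known. Named genes were all members, up to 2 genes in each direction of each list with the lowest p among those under 0.05, and the 3 genes nearest in pattern to members that range over more than 1 log2 unit.

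Neither the labels nor the methods explain the replicate numbers. After removal of condition means, same-numbered arrays correlated at 0.291, 0.137 and 0.103 across probes, and shRNA replicate 2 with scramble replicate 3 at 0.199. The reported fit is unpaired, and the fit with the replicate number as a block is given beside results it moves. Alternatives were the replicate block, quantile normalization, centring on the array median, trended and robust variance, array weights, averaging all probes of a gene, leaving out dim probes, no size criterion, leaving out each array, and leaving out both arrays numbered 1. Promoter sequences are from RefSeq (GRCm38.p6); Mbd2 was not searched.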

Additional observations from a re-analysis of the deposited data

How the results depend on the processing

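Of 126 differences of the 9 genes recomputed over 14 alternatives, 121 kept their direction. The 5 reversals were Tet1 with both arrays numbered 1 removed (0.0082) and among single arrays left out, where the difference of Tet1 ran from -0.16 to 0.091, of Dnmt3a from -0.028 to 0.19 and of Tet3 from -0.10 to 0.35. No gene of the 9 was called except with array weights, where limma called 2 (Dnmt3b and Uhrf1, adjusted p 0.0204 and 0.0483) and Dnmt1 had an adjusted p of 0.0360 but a difference of 0.48. Over all alternatives the adjusted p ran from 0.0204 to 0.913 for Dnmt3b, from 0.0483 to 0.945 for Uhrf1 and from 0.0360 to 0.932 for Dnmt1. The count at an unadjusted p under 0.05, 0 in the report, was 2 with the replicate block, 1 with quantile normalization, 2 after centring on the array median, 4 with array weights, 2 with all probes of a gene averaged and 4 without both arrays numbered 1. The share of all genes under that p was 11.7% in the report and, in the same order, 14.6%, 12.1%, 11.4%, 32.6%, 13.5% and 21.2%. With single arrays left out the count ran from 0 to 3, highest without scramble replicate 1, where the share was 19.4%. The count of genes without overlap, 1 in the report, was 0 after centring on the array median and 7 of 9 without both arrays numbered 1, where 55.5% of all genes did not overlap. With quantile normalization the 1 gene was Dnmt1 in place of Mbd2. With single arrays left out, which can only keep or raise it, the count ran from 1 to 5 and the share of all genes from 21.0% to 40.0%, both highest without scramble replicate 1. The replicate block changed no adjusted call. Of the alternatives, quantile normalization and centring on the array median could make the 4 probes shared by Tdg and Tdg-ps2 overlap, and with both they did not.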
